A study of Mus musculus with 6 samples.

Results

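Genes of the interferon response and of MHC class I presentation were followed across microglia and neural stem/precursor cells (NSPCs) of the adult mouse subventricular zone (SVZ), before and after a cortical stroke. The set holds 33 genes, taken by symbol from the 34203 rows of the deposited gene table, of which 21136 had at least 1 unique molecular identifier (UMI, 1 tagged RNA molecule) in a cell. All 33 were found: the MHC class I chains B2m, H2-D1, H2-T23 and H2-M3, the genes of peptide supply and loading Tap1, Tap2, Tapbp, Psmb8, Psmb9, Psme1, Psme2 and Nlrc5, the transcription factors Stat2, Irf1, Irf7, Irf8 and Irf9, the interferon-stimulated effectors Isg15, Ifit1, Ifit2, Ifit3, Ifitm2, Ifitm3, Bst2, Oasl2, Rtp4, Usp18, Xaf1, Ifi35, Trim30a and Lgals9, and the receptor chains Ifnar1 and Ifnar2. Sorted single cells were sequenced by mCEL-Seq2, which counts molecules from the 3′ end of the transcript. All mice were adult Nestin-CreERT2:R26-yfp animals of both sexes on C57BL/6N that had received tamoxifen on 5 days from the age of 8 to 12 weeks, so that YFP marked cells in which Nestin-driven Cre had been active and their progeny. The 3 groups were uninjured mice, mice 1 day after photothrombotic ischaemia of the cortex (PT D1) and mice 7 days after it (PT D7), with 2 libraries each. Microglia were sorted as CD11b+CD45low and NSPCs as YFP+ cells from the SVZ on the side of the lesion, and cells positive for Ly6C/Ly6G with high CD45 were excluded. The protocol gives enzyme amounts for several mice at a time, and the number of mice behind each library is not given, so the spread between 2 libraries may be partly technical.

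Type I interferons bind a receptor made of Ifnar1 and Ifnar2, which signals through a complex that holds Stat2 and Irf9 to switch on interferon-stimulated genes, many of which block steps of viral replication. Interferon-gamma has a receptor of its own and acts in part through Irf1. Both raise the machinery that displays peptides from inside the cell to CD8+ T cells: the immunoproteasome cuts proteins, Tap1 and Tap2 carry the peptides into the endoplasmic reticulum, Tapbp helps to load them, and a heavy chain such as H2-D1 carries them to the surface with B2m. In the healthy brain, neurons and their precursors are known for low MHC class I, and microglia are the main resident cells that raise it.

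The 658 deposited cells were 416 microglia, 222 NSPCs and 20 cells that the authors named unknown/ependymal. A library held 54 to 84 microglia with 294984 to 468186 UMIs in all and 15 to 61 NSPCs with 82504 to 497292 UMIs. Both class names matched their markers: as UMIs per 1000000 UMIs of the class (CPM), leaving out 5 predicted Gm transcripts, summed microglia markers reached 8967 to 23311 in microglia, and summed NSPC markers reached 4796 to 7150 in NSPCs. The PT D1 2 microglia stood apart, with 1117 CPM of MHC class II genes against 162 to 352 in the other 5 libraries. Of 7 border macrophage markers 1 was high there, Cbr2 at 1793.5 CPM against 120.5 to 420.4, while the other 6 were at 0 to 9.95 each, and their sum over 7 was 1820.02 against 265 to 582. Markers of monocytes and neutrophils summed to 116 there against 8.73 to 48.2 elsewhere, of which Plac8 made up 99.5, and lymphocyte markers summed to 10.5 to 48.2. Choroid plexus markers moved with the condition, at 15495 and 6779 in uninjured microglia against 304 to 1072 after stroke and at 1797 and 4720.0 in uninjured NSPCs against 49.5 to 115, and their part in the results was not tested. Of 180 cell numbers in the cell names, 164 occurred in more than 1 library, but no 2 cells had identical counts. Depth was thin for most of the 33 genes: 19 had under 100 UMIs over all microglia and 29 over all NSPCs.

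The promoters of the members were searched for sequences tied to interferon signalling. The members were picked as genes of the interferon response and of MHC class I presentation, so an excess of such sequences is no independent support for the set. The interferon-stimulated response element (ISRE) is the DNA site bound by the complex with Stat2 and Irf9 and by other interferon regulatory factors. It was searched as GAAANNGAAA or, for the other strand, TTTCNNTTTC, in the window from 250 bases before to 50 bases after the transcription start (RefSeq, GRCm38.p6). At least 1 match lay in 12 of the 29 members with a window (41.4%), against 3.99% of all 27025 genes with one. The interferon-gamma activated site TTCNNNGAA, which reads the same on both strands, matched in 10 of 29 (34.5%) against 9.55% of all genes. The first base of the match was 139 bases before the start in B2m, and in Bst2 an overlapping pair began 130 and 124 bases before it. Isg15 held 3 overlapping matches, from 78, 72 and 66 bases before the start, and Ifit3 held matches from 156 and 122 bases before it. In Ifitm3 the pair lay just after the start, from bases 3 and 20. The windows of B2m, Bst2, Isg15 and Ifit3 are shown because these members stand for the chain common to all MHC class I molecules and for the effectors, and Ifitm3 because it is the member that passed the test in NSPCs. They are written 5′ to 3′ on the gene's strand with the ISRE letters in capitals; the first 4 are the 250 bases before the start at chr2:122147437-122147686 (+), chr8:71537473-71537722 (−), chr4:156200819-156201068 (−) and chr19:34583279-34583528 (+), and Ifitm3 is the first 30 bases from the start at chr7:141010715-141010744 (−).
B2m: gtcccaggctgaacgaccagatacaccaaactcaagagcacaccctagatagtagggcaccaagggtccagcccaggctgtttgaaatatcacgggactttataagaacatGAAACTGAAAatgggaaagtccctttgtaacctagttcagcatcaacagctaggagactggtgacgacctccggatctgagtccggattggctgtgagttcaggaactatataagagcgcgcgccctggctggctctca
Bst2: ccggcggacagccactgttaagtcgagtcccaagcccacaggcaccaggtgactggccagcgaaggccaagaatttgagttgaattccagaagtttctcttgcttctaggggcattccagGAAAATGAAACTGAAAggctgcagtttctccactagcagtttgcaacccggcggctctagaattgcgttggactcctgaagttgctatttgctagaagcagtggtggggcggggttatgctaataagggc
Isg15: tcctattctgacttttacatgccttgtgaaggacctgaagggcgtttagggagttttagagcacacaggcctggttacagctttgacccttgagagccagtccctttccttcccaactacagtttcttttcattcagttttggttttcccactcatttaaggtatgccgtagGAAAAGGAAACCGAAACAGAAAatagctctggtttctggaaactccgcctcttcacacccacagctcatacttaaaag
Ifit3: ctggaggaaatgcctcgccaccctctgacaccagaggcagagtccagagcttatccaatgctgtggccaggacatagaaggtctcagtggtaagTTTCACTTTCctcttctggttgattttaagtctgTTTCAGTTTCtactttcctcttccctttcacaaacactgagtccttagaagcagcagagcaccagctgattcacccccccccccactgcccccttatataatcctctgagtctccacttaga
Ifitm3: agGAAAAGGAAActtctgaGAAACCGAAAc

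A match is a run of letters, not a site shown to be bound. Other members with an ISRE match were H2-T23, Psme1, Stat2, Ifit1, Ifitm2, Lgals9 and Trim30a. Windows can overlap: those of Tap1 and Psmb9, which are transcribed away from each other, shared 275 of their 300 bases. In position, 8 of the 33 genes lay on chromosome 17, where the mouse MHC is (H2-D1, H2-M3, H2-T23, Psmb8, Psmb9, Tap1, Tap2 and Tapbp), and the 3 Ifit genes on chromosome 19. In GRCm39, the build of the deposited counts per the labels, B2m spans chr2:121977957-121983594, H2-D1 chr17:35481691-35486475, Bst2 chr8:71986895-71990114, Trim30a chr7:104058232-104114407 and Ifitm3 chr7:140589499-140591282. The letters shown for B2m and Ifitm3 lie at chr2:121977918-121978167 and chr7:140590628-140590657 in that build. Both reach into the gene spans given, so distances before or after the start depend on the RefSeq start used. The close copies H2-K1, H2-Q7, H2-T22 and Ifit3b were not analysed here. In microglia Psme2b had 125 UMIs where Psme2 had 3, Trim30d had 110 where Trim30a had 238, and Ifitm1 had 464 where Ifitm3 had 103. Values of H2-D1, H2-T23, Ifit3, Psme2, Trim30a and the paired Ifitm2 and Ifitm3 are thus uncertain where reads of close copies were shared out.

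Most members had a higher level in microglia than in NSPCs. In microglia the members summed to 9796 UMIs, of which B2m made up 53.6%, and in NSPCs they summed to 1157, of which B2m made up 21.4%. Levels by class and subcluster are given as CPM of the UMIs outside the 5 Gm transcripts (CPM outside Gm), since these took 34.8% of microglial and 17.1% of NSPC UMIs; this scale was chosen after the data were seen. By it, 29 members were higher in microglia over all libraries and 21 were higher there in 6 of 6 libraries. The share of all genes with such an order was not computed, so the counts do not set the members apart from other genes. These are descriptions without a test, since the authors defined the classes from the same counts.

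Among the MHC class I chains, B2m, the light chain of every class I molecule, was at 3609 in microglia and 190.2 in NSPCs, a ratio of 19.0. H2-D1, a classical heavy chain, was at 503 against 76.7, and H2-T23, a non-classical heavy chain, at 254 against 39.9. In peptide supply, Tapbp was at 183 against 39.1, while Psme1, a subunit of the proteasome activator that interferon-gamma induces, differed far less, at 125 against 85.9. Irf8, which microglia need for their development, was at 465 against 24.5. Trim30a, a feedback inhibitor of inflammatory signalling, had the widest ratio of the members with UMIs in both classes, 163 against 3.83. Ifi35, a regulator of innate signalling, had no UMI in NSPCs and was at least 14.9-fold higher in microglia, taking 3 UMIs over all NSPCs as the limit that a count of 0 allows. The receptor chains split: Ifnar2 was higher in microglia, at 150.4 against 26.8, and Ifnar1 was at 19.9 in both.

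The 4 members that were not higher in microglia were Ifit2, Ifitm3, Psme2 and Ifnar1. Ifit2, which binds viral RNA, was higher in NSPCs in 6 of 6 libraries, at 22.5 to 30.5 against 0 to 10.5 in microglia. Ifitm3, a membrane protein that hinders the entry of viruses, was at 82.0 in NSPCs and 70.7 in microglia. Free microglial RNA can place UMIs in NSPCs, so the summed level of the microglia markers in NSPCs was set beside the members: it was 1.91% to 3.51% of that in microglia in 5 libraries and 7.73% in PT D7 1. At those shares of its microglial level B2m would be at 49.2 to 392 in NSPCs, and the measured values were 102 to 473. The measured B2m value was the higher in 6 of 6 libraries, but by little in PT D1 1 (118.7 against 97.55) and PT D7 1 (473 against 392). Ifitm3 would be at 0.73 to 9.78 and was measured at 24.99 to 258. The part of free RNA in the NSPC values was not tested. In PT D7 1, 1 quiescent type B cell held 96 of the 112 microglia marker UMIs and also 115 NSPC marker UMIs, with 24 of B2m, 8 of H2-D1 and 5 of Ifitm3. Without that cell the PT D7 1 NSPCs were at 151 for B2m, 117 for H2-D1 and 218 for Ifitm3.

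The authors split microglia into 5 subclusters and NSPCs into 4, and the members were spread unevenly over both. Of the 33 members, 18 were highest in the 37 disease-associated microglia, a state known for genes of lipid handling and phagocytosis. The share of all genes that were highest there was not computed. B2m was at 6988 there, 4693 in activated, 2595 in homeostatic, 2575 in unknown and 2308 in development-associated microglia. H2-D1 was at 1091 in disease-associated microglia and at 370.3 to 489 in the other 4 subclusters, and Bst2, which tethers budding virus to the cell, was at 212 against 17.1 to 75.7. Irf7, the factor that amplifies interferon production, was at 59.7 there (11 UMIs in 8 cells) and at 5.05 to 11.7 elsewhere. The 41 development-associated microglia had another profile: they were lowest for B2m and Trim30a and highest for Ifit3, at 142 against 11.7 to 43.4, and for Oasl2, a member of the oligoadenylate synthetase family, at 136. Of these 41 cells, 35 came from PT D1 2, the library with high Cbr2 and MHC class II genes.

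Among NSPCs, 25 of the 32 members with a UMI were highest in the 50 quiescent type B cells, the resting stem cells of the SVZ. For this count too the share of all genes was not computed. Some of these ranks rest on very few UMIs, as for Psmb9 with 2 and Nlrc5 with 1 in all NSPCs. B2m was at 401 there and at 129 to 151 in activated type B cells, type C cells (transit-amplifying progenitors) and neuroblasts. Ifitm3 was lower at each later stage, at 342 in quiescent type B, 48.5 in activated type B, 14.3 in type C and 11.5 in neuroblasts. Ifit2 was an exception, with its highest NSPC level in activated type B cells, at 35.1 against 17.1 in quiescent type B. Microglia markers were at 841 in quiescent type B cells and 342 to 532 in the other 3. Of the 197 marker UMIs behind the 841, 96 lay in 1 cell of PT D7 1. That cell also held 24 of the 94 B2m UMIs of quiescent type B cells. The part of these markers and of that cell in the order of the members was not tested. The heat map of levels by subcluster shows the module's main blocks.

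**Figure D1:**
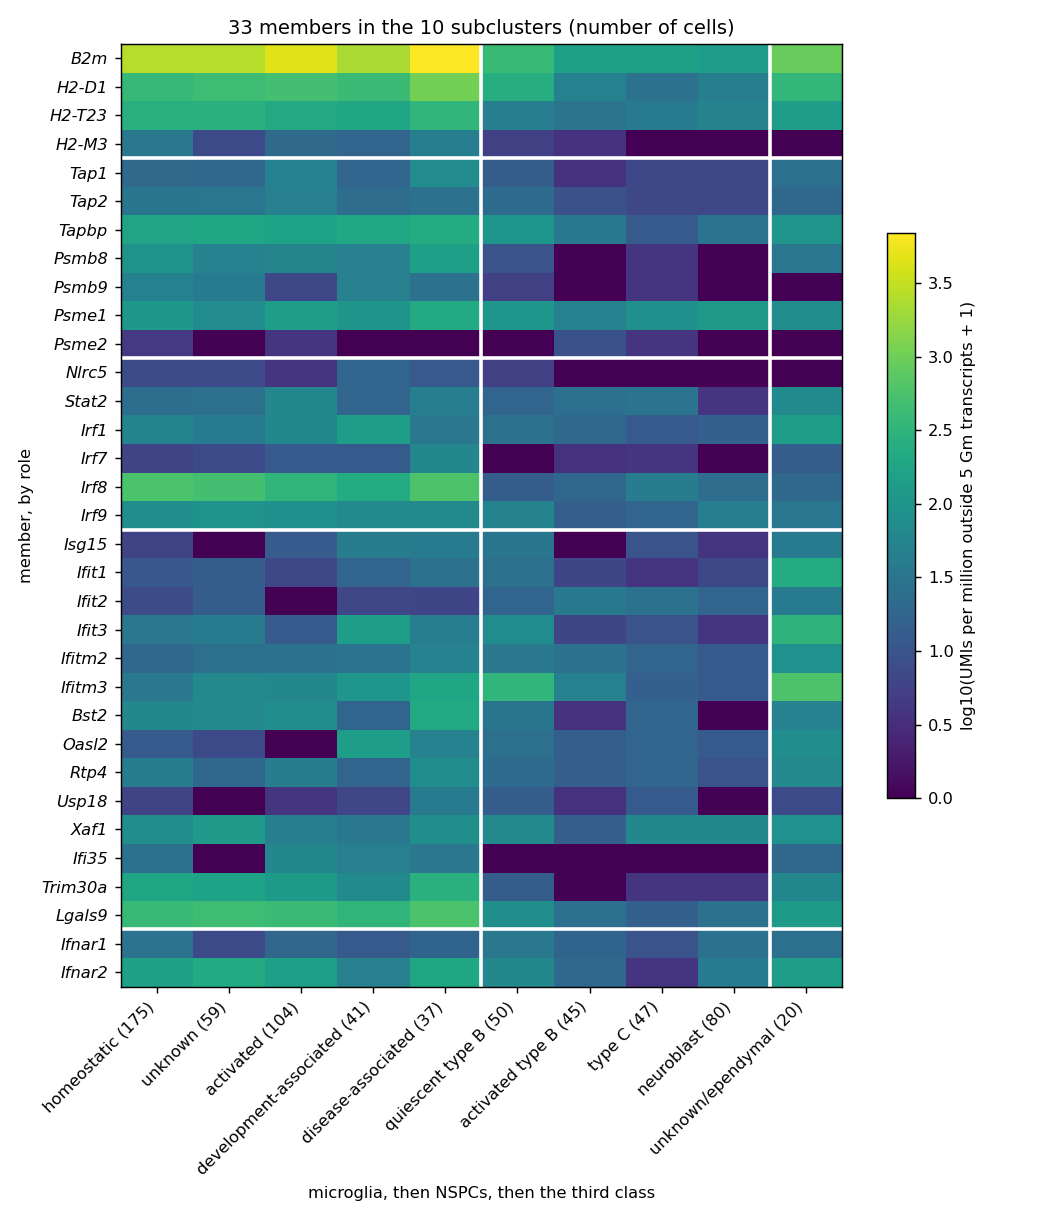
Level of each member (rows) in the authors' subclusters (columns), as CPM of UMIs outside 5 Gm transcripts pooled over the 6 libraries on a log scale. B2m reaches 6988 in disease-associated microglia, and Ifitm3 and Ifit3 are highest in the 20 unknown/ependymal cells, at 595 and 319.

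The next question was whether the module changed in microglia after stroke. UMIs were summed per library and class, and edgeR's quasi-likelihood test was run over all 4846 genes with enough UMIs, with Benjamini-Hochberg adjustment and a call at an adjusted p under 0.05. Of the 33 members, 19 had enough UMIs. None of the 19 was called in microglia at PT D1 against uninjured, at PT D7 against uninjured or at PT D7 against PT D1, where 5.7%, 0.165% and 3.8% of all genes tested were called. At an unadjusted p under 0.05 there were 5, 6 and 7 members, and 1066, 355 and 907 of all genes. DESeq2 also called 0 members in each. Library values below are CPM scaled by TMM, edgeR's normalization factors. Members other than B2m, H2-D1, Irf8, Lgals9, H2-T23 and Tapbp, the 6 with the most UMIs in microglia, are given by library where they were singled out after their values were seen.

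The members' medians nonetheless lay above those of all genes tested. The members were chosen with earlier results of these data known, so an excess over all genes is no independent support for a change. The median log2 fold change of the 19 was 0.11 at PT D1 (all genes 0.04), 0.44 at PT D7 (all genes −0.01) and 0.56 from PT D1 to PT D7 (all genes −0.01). At PT D7, 14 of the 19 had both libraries above both uninjured libraries, which was so for 19.1% of all genes, and 1 had both below (20.3%). Among the 14, Tap1, Rtp4 and Ifitm3 reached the UMI limit of the test only with injured libraries counted in. From PT D1 to PT D7, 12 were higher in both libraries (22.7%) and 0 lower (24.1%). At PT D1, 6 were higher (27.2%) and 7 lower (24.2%). These counts depend on the scaling: as CPM of all UMIs, without TMM, 8 members were higher at PT D7 (9.49% of genes) and 3 lower (32.7%), and the median of all genes moved to −0.25 and that of the members to 0.21. The 5 Gm transcripts took 43.7% and 35.7% of microglial UMIs at PT D7 and 31.4% to 32.1% in uninjured mice.

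Of the MHC class I chains, B2m was at 1524 and 1799.6 CPM in uninjured mice, then 3551 and 2268 (PT D1), then 3521 and 3349 (PT D7). All 4 injured libraries lay above both uninjured ones. In the edgeR fit the log2 fold change was 0.81 (SE 0.28, adjusted p = 0.126) at PT D1 and 1.05 (SE 0.28, adjusted p = 0.366) at PT D7. H2-D1 was at 209.5 and 268 in uninjured mice, then 358 and 340.0 (PT D1), then 489 and 575 (PT D7), again with no overlap between uninjured and injured libraries. Its log2 fold change was 1.15 at PT D7 (SE 0.25, edgeR adjusted p = 0.193). H2-T23 showed no such order, at 187 and 189, then 170.1 and 119, then 226 and 200.2. Deviations of same-numbered libraries correlated at 0.193 to 0.262 in microglia, a pairing seen in these counts, since no source states a shared batch. The block was thus chosen from the counts on which it was then tested. Library 2 held more NSPCs than library 1 in each condition (59, 52 and 61 against 16, 19 and 15). Summed NSPC markers in microglia were at 1077, 471 and 924 CPM outside Gm in library 2 and 453, 310 and 385 in library 1. Their part in the correlation was not tested. With the library number as a replicate block edgeR called B2m at PT D1 (log2 fold change 0.78, adjusted p = 0.0166) and H2-D1 (1.15, adjusted p = 0.0115) and B2m (1.04, adjusted p = 0.0152) at PT D7. The share of all genes called with the block is not given here. Without PT D1 replicate 2, the library with high Cbr2 and MHC class II genes, edgeR likewise called H2-D1 and B2m at PT D7 (adjusted p = 0.0130 and 0.0456). PT D1 then held 1 library, so a result for B2m at PT D1 is not given for that fit. Over all alternatives the adjusted p of these 3 results ran from 0.0166 to 0.566, from 0.0115 to 0.996 and from 0.0152 to 0.997.

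**Figure D2:**
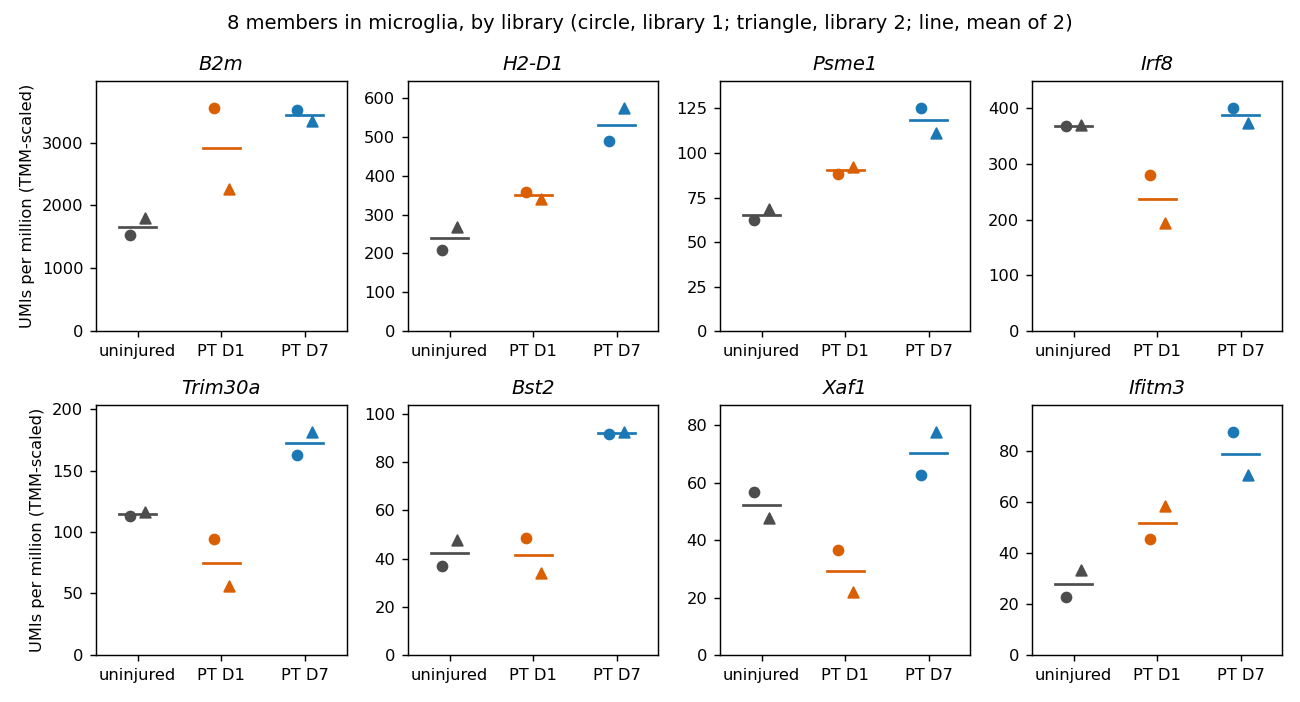
TMM-scaled CPM of members in the microglia of each library, 1 point per library with the group mean, on a linear axis from 0 in each panel. The 4 injured libraries of B2m lie between 2268 and 3551 and the uninjured ones at 1524 and 1799.6.

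The genes of peptide supply and loading differed in their order. Psme1 was at 62.3 and 68.5 in uninjured mice, then 88.1 and 92.3 (PT D1), then 125 and 111 (PT D7), above both uninjured libraries in 4 of 4. Psmb8, a catalytic subunit of the immunoproteasome, was at 68.0 and 74.7 in uninjured mice and at 36.5 and 41.3 at PT D1 (log2 fold change −0.87, SE 0.33, edgeR adjusted p = 0.152). At PT D7 it was at 62.6 and 48.2, so both times lay below uninjured. Tapbp was at 136 and 120.4, then 146 and 121, then 121 and 126, with all groups overlapping. Psmb9, another catalytic subunit of the immunoproteasome, ranged from 3.04 to 37.6 and Tap1 from 9.71 to 45.6, with the PT D1 libraries at opposite ends for Tap1. Tap2, H2-M3, Psme2 and Nlrc5, the transactivator of MHC class I genes, had too few UMIs to be tested and ranged from 0 to 33.4.

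Of the transcription factors, Irf8 was at 368 and 369 in uninjured mice, then 279 and 194 (PT D1), then 401 and 375 (PT D7). Both PT D1 libraries lay below the other 4 (log2 fold change −0.64 against uninjured, SE 0.26, edgeR adjusted p = 0.172). Irf9, the DNA-binding partner of Stat2, was at 39.6 and 49.8, then 63.8 and 53.4, then 58.5 and 70.5. Irf1, the factor downstream of interferon-gamma, was at 22.7 and 39.4, then 39.5 and 80.1, then 25.1 and 40.8, and the groups overlapped between uninjured and PT D7. Stat2 and Irf7 had too few UMIs for the test, and Stat2 ranged from 14.2 to 36.5. Irf7 was at 5.66 and 4.15 CPM in uninjured mice, then 6.08 and 9.71 (PT D1), then 25.1 and 18.5 (PT D7).

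Among the effectors, the PT D7 libraries were the highest for several antiviral genes. Lgals9, which encodes the secreted lectin galectin-9, had the most UMIs of this group and was at 289 and 253, then 301 and 284, then 329.9 and 349. Trim30a was at 113 and 116 in uninjured mice, then 94.2 and 55.8 (PT D1), then 163 and 182 (PT D7), so both PT D7 libraries lay above the other 4. From PT D1 to PT D7 its log2 fold change was 1.21 (SE 0.32, edgeR adjusted p = 0.0603). Bst2 was at 36.8 and 47.7, then 48.6 and 33.99, then 91.9 and 92.7 (PT D7 against PT D1 1.17, SE 0.35, edgeR adjusted p = 0.0910). Xaf1, which promotes cell death in interferon-treated cells, was at 56.6 and 47.7, then 36.5 and 21.9, then 62.6 and 77.9 (1.29, SE 0.40, edgeR adjusted p = 0.100). The share of all genes called with the replicate block, a pairing seen in the data, is not given here. With the block edgeR called all 3 from PT D1 to PT D7: Trim30a at 1.23 (adjusted p = 0.0103), Bst2 at 1.18 (adjusted p = 0.0397) and Xaf1 at 1.30 (adjusted p = 0.0471). Over all alternatives the adjusted p ran from 0.00518 to 0.244, from 0.0397 to 0.332 and from 0.0410 to 0.383. These alternatives include a fit without PT D1 replicate 1, which leaves PT D1 2 as the only PT D1 library, so its calls are not given. Of the 76 microglia of PT D1 2, 35 were development-associated, the subcluster lowest for Trim30a. PT D1 2 was also the lowest of the 6 libraries for Trim30a, Bst2 and Xaf1.

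Ifitm3 did not pass the test in microglia, where it was at 22.7 and 33.2, then 45.6 and 58.3, then 87.7 and 70.5. Its log2 fold change was 0.87 at PT D1 (SE 0.38, edgeR adjusted p = 0.205) and 1.46 at PT D7 (SE 0.37, adjusted p = 0.293). Rtp4, an interferon-induced receptor transporter, was at 17.0 and 22.8, then 30.4 and 17.0, then 54.3 and 44.5. Ifit3 and Oasl2 were uneven within PT D1: Ifit3 was at 6.08 and 63.1 CPM and Oasl2 at 0 and 55.8. In PT D1 2 the 23 Oasl2 UMIs lay in 10 cells and the 26 Ifit3 UMIs in 16 cells, so neither rested on 1 cell alone. However, 1 development-associated cell held 9 UMIs of each. PT D1 2 is the library with high Cbr2 and MHC class II genes, whose part in these values was not tested. Isg15, Ifit1, Ifit2 and Ifitm2 were too low for the test, at 0 to 29.1, and Ifi35 ranged from 4.18 to 51.6. Ifit1 was at 11.3 and 12.5, then 3.04 and 9.71, then 4.18 and 7.42, so both times lay below uninjured. Usp18, the protease that removes Isg15 from proteins and damps the type I receptor, was too low for the test at 2.83 and 2.08, then 3.04 and 2.43, then 20.9 and 11.1. In PT D7 2 a level of 11.1 stands for 3 UMIs. Of the receptor chains, Ifnar2 was at 102 and 118, then 91.1 and 72.8, then 125 and 133. Ifnar1, untested, was at 19.8 and 24.9, then 6.08 and 14.6, then 8.35 and 0, below uninjured at both times.

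**Figure D3:**
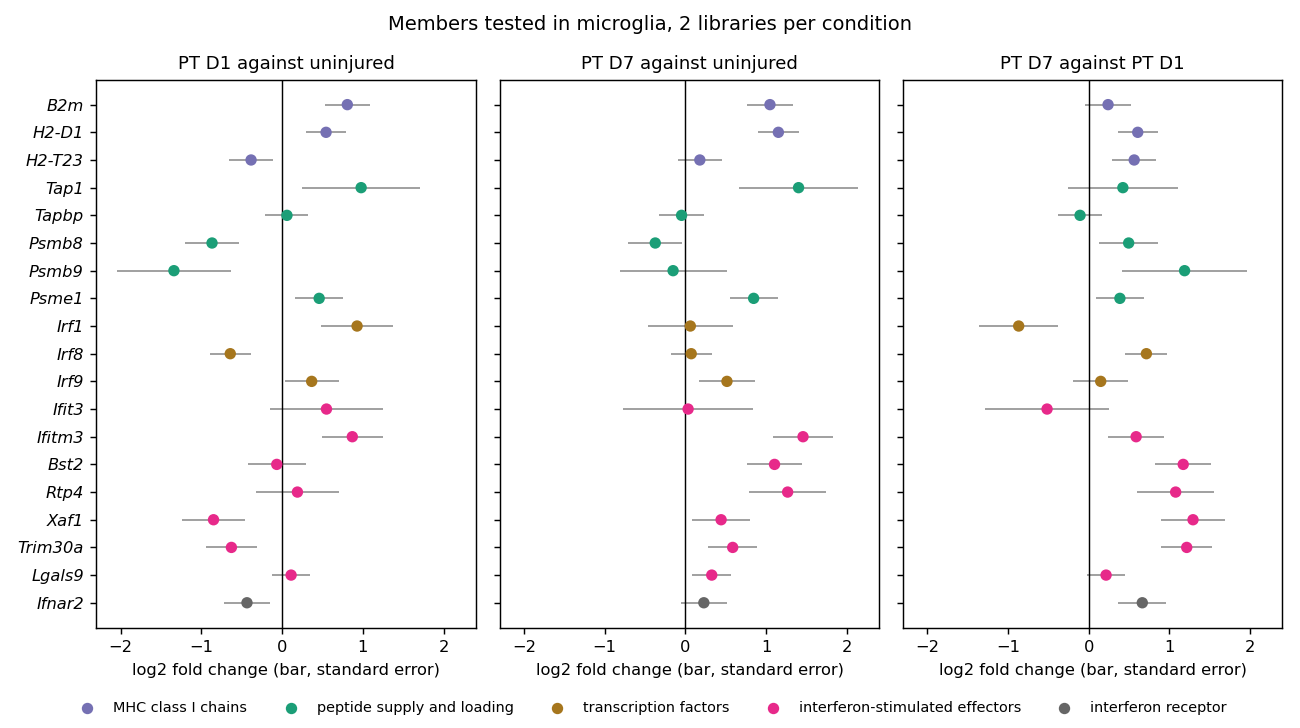
Log2 fold changes in microglia of the 19 members tested, from edgeR, with bars of 1 SE, for PT D1 and PT D7 against uninjured and PT D7 against PT D1. Most PT D7 points lie to the right of 0, where the median of the members is 0.44 and that of all genes −0.01.

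The make-up of the microglia changed with the condition, so PT D7 and uninjured cells were also compared within subclusters, as levels without a test. Activated microglia (64 and 40 cells) came only from PT D1, and homeostatic cells numbered 54 and 70 in uninjured mice, 1 in all after 1 day and 18 and 32 after 7 days. Within homeostatic microglia, 18 members had at least 20 UMIs, of which 10 had both PT D7 libraries above both uninjured libraries and 0 had both below, against 16.4% and 18.6% of the 4918 genes with as many UMIs. Here and in the subclusters below, such counts are no independent support, since the members were chosen with earlier results of these data known. B2m was there at 2224 and 2445 CPM outside Gm in uninjured mice and at 3662 and 3489 at PT D7. Trim30a was at 142 and 145 against 369 and 275, and Rtp4 at 19.6 and 23.5 against 184 and 80.1. H2-D1 was at 288 and 318 against 369 and 721. In this subcluster B2m, H2-D1, Trim30a and Rtp4 thus kept the order that they had over all microglia. The Rtp4 values rested on 10 UMIs in uninjured mice and 15 at PT D7. Tapbp, H2-M3 and Irf1 were also among the 10, although they overlapped over all microglia on the TMM scale. Tapbp differed little, at 181 and 169 against 184 and 183. The other 8 members overlapped. Among them, H2-T23, Irf8, Bst2, Xaf1, Lgals9 and Ifnar2 had been higher at PT D7 over all microglia on the TMM scale. Bst2 was at 58.7 and 51.0 against 46.1 and 91.5, and Xaf1 at 73.3 and 58.9 against 69.1 and 137.

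Within unknown microglia, 3 of 8 members were higher at PT D7 (18.5% of genes) and 1 lower (12.6%), and B2m was at 1718 and 1233 against 3186 and 2945. Within disease-associated microglia, 3 of 12 were higher (26%) and 3 lower (14.6%), from only 1 and 5 uninjured cells. Trim30a was lower at PT D7 there, at 448 and 473 against 198 and 239, the opposite of its order in homeostatic cells. The share of microglia with a Trim30a UMI, after thinning each cell to 1000 UMIs, was 5.16% for uninjured, 6.80% for PT D1 and 21.1% for PT D7, with exact 95% binomial intervals of 2.25% to 9.92%, 3.31% to 12.2% and 13.98% to 29.7% that cover counting error only. Without thinning the shares were 35.5%, 29.3% and 48.2%. In NSPCs, taken as cells that should lack it, 1.80% of cells had a Trim30a UMI unthinned and 0.450% thinned, at a median of 6449 UMIs per cell against 4854.5 in microglia.

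In NSPCs 8 members had enough UMIs among 4907 genes tested, and 1 was called. For Ifitm3 and H2-D1 the UMI limit of the test was reached only in injured libraries. Ifitm3 rose at PT D1, from 28.7 and 24.2 CPM in uninjured mice to 134 and 138, with a log2 fold change of 2.41 (SE 0.56, edgeR adjusted p = 0.0190). At PT D1 2.12% of all genes were called, 1.04% in the higher direction. At PT D7 Ifitm3 was at 238 and 48.5, and none of the 8 members was called against uninjured (background 0.0815%) or against PT D1 (0.632%). At an unadjusted p under 0.05 there were 3, 2 and 0 members in the 3 comparisons, and 724, 230 and 532 of all 4907 genes. Ifitm3 was lost without uninjured replicate 2 (adjusted p = 0.116) and without the cells that held UMIs of at least 3 markers of the other class (log2 fold change 1.32, adjusted p = 0.382), within a range of 3.79e-05 to 0.382 over its alternatives. DESeq2 gave a log2 fold change of 2.42 with no adjusted p. Its UMIs over 2 libraries numbered 13 (uninjured), 59 (PT D1) and 35 (PT D7).

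The Ifitm3 UMIs lay mainly in the resting stem cells. Quiescent type B cells were 22.5% of NSPCs and held 18.0% of their UMIs, but 80 of the 107 Ifitm3 UMIs (74.8%). In these cells Ifitm3 was at 263 and 100.7 CPM outside Gm in uninjured mice, then 556 and 538 (PT D1), then 867 and 152 (PT D7). The uninjured value of 263 rested on 3 UMIs in 1 of 3 cells, and the PT D1 value of 556 on 11 UMIs in 2 of 4 cells. Of the 18 UMIs behind the PT D7 value of 867, 5 lay in the 1 cell that held 96 microglia marker UMIs. In the other NSPCs Ifitm3 was at 0 and 6.24, then 65.7 and 31.9, then 0 and 38.3. Here too the PT D1 libraries lay above the uninjured ones, although all 7 UMIs of PT D1 1 came from 1 cell. Choroid plexus markers were lower in all 4 injured NSPC libraries than in both uninjured ones, as given above, and their part in the Ifitm3 difference was not tested. Over all NSPCs, an Ifitm3 UMI was found in 8 of 75 uninjured, 17 of 71 PT D1 and 18 of 76 PT D7 cells.

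**Figure D4:**
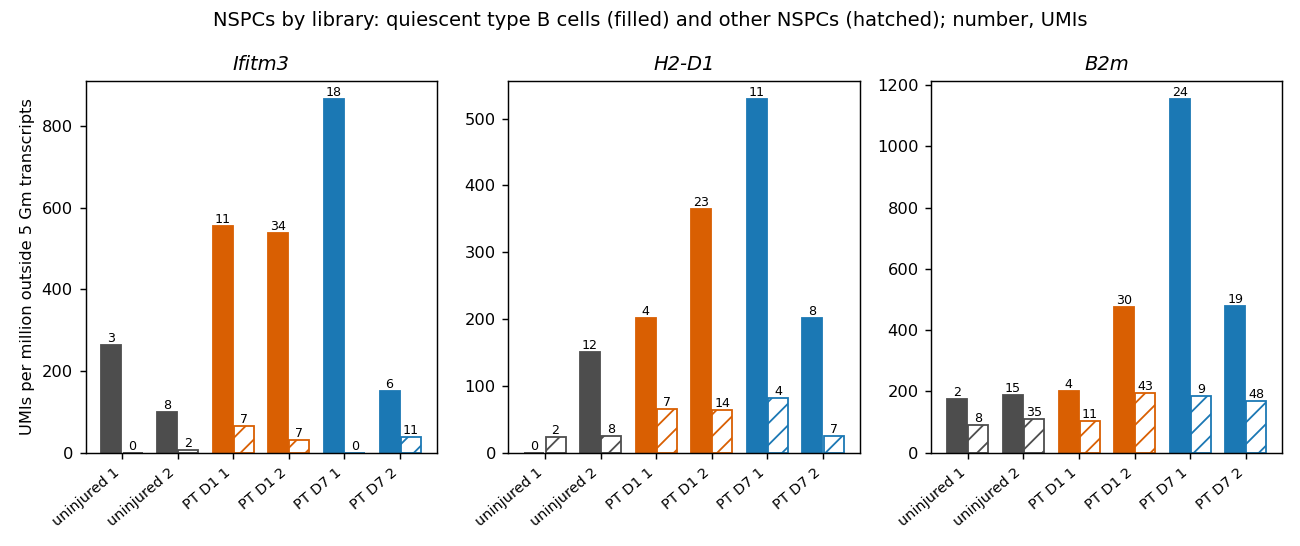
Level of Ifitm3, B2m and H2-D1 in quiescent type B cells and in the other NSPCs of each library, as CPM of UMIs outside 5 Gm transcripts, with the number of UMIs on each bar. Ifitm3 in quiescent type B cells is at 556 and 538 at PT D1 against 263 and 100.7 in uninjured mice, and at 867 and 152 at PT D7.

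The other 7 NSPC members were not called, and the 25 members with too few UMIs ranged from 0 to 79.4, the highest being Irf8 in PT D7 1. B2m was at 95.8 and 121 CPM in uninjured mice, then 112 and 245 (PT D1), then 437 and 191 (PT D7), the 437 being the library in which 1 cell held 24 of its UMIs. H2-D1 was at 19.2 and 48.4, then 82.0 and 124, then 199 and 42.8, so that PT D1 lay above uninjured and PT D7 straddled it. Psme1 was at 67.1 and 74.996, then 52.2 and 100.9, then 132 and 77.0. H2-T23 was at 19.2 and 50.8, then 22.4 and 23.5, then 52.9 and 42.8, and Tapbp ranged from 19.4 to 66.2, with PT D1 and uninjured overlapping for both. Xaf1 was the one of the 8 tested members with both PT D1 libraries below both uninjured ones, at 38.3 and 77.4 against 22.4 and 26.9, and Lgals9 ranged from 17.1 to 92.6. Of the 8 members, 2 were higher at PT D1 in both libraries (23% of genes) and 3 at PT D7 (16.6%), and 2 were higher at PT D7 than at PT D1 (19.8%). The 2 at PT D1 were H2-D1 and Ifitm3, which reached the UMI limit of the test only in injured libraries. Ifitm3 was also among the 3 at PT D7. These counts are therefore no independent support for a rise. H2-D1 passed at PT D1 without PT D7 replicate 1 (edgeR adjusted p = 0.0453), a setting for which the share of all genes called is not given here. Without PT D7 replicate 2 the PT D7 group held only PT D7 1, with 15 NSPCs and the cell that held 24 B2m UMIs. Calls from fits that leave a compared group with 1 library are not given.

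Whether the 2 classes changed differently was tested as an interaction over all 12 sums. None of 20 members was called at PT D1 or PT D7, where 0.24% and 0.0399% of 7514 genes were. At an unadjusted p under 0.05 there were 1 and 2 members, and 514 and 292 of the 7514 genes. Every alternative tried also gave 0 calls of a member. For Ifitm3 at PT D1, the member called in NSPCs and not in microglia, the difference was −1.69 (SE 0.69, edgeR adjusted p = 0.551), so its changes were not shown to differ between the classes.

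Other genes of the same pathways were read from a list of 119, of which 106 were analysed here. The list takes in signalling and nucleic acid sensing genes such as Socs3, Stat3 and Tlr7. For the microglial cluster predominant at PT D1 the paper names Toll-like-receptor and STAT3 pathways among others. Counts from the list are thus not particular to interferon, and the list was chosen with earlier results of these data known. In microglia 51 could be tested. At PT D1 6 rose and 2 fell, where 2.72% and 2.97% of all genes did: Socs3, the feedback inhibitor of cytokine receptors, rose by 2.89 on the log2 scale (edgeR adjusted p = 0.000484), Stat3 by 2.07, the RNA sensor Tlr7 by 1.65, the lysosomal reductase Ifi30 by 1.59 and the chemokine Ccl12 by 2.21. The chemokine Cxcl10 also passed, from 0 and 2.08 CPM to 30.4 and 58.3. The 2 that fell were the interferon-stimulated gene Ifi27 (−1.70, edgeR adjusted p = 0.0207) and the nucleic acid sensor Tlr3 (−2.31, adjusted p = 0.0320). At PT D7 0 of 51 passed against uninjured. From PT D1 to PT D7, where 1.69% of all genes rose and 2.1% fell, Socs3 fell by 3.01 on the log2 scale (edgeR adjusted p = 0.000498), and Tlr7, Stat3, Ccl12 and Cxcl10 fell too. In NSPCs 15 could be tested, and Socs3 rose at PT D1 (2.54, edgeR adjusted p = 0.0142) and fell from PT D1 to PT D7 (−2.63, adjusted p = 0.0412, with 0.408% of all genes falling). The comparisons share libraries, so a gene that was high at PT D1 entered both.

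Per cell, the 13 antiviral effectors, all but Lgals9, gave a median of 3 UMIs in disease-associated microglia, 2 in development-associated and 1 in each of the other microglia subclusters, and 0 in neuroblasts. Their summed level in microglia was 453 and 573 CPM outside Gm in uninjured mice, then 480.2 and 544 (PT D1), then 789 and 850.2 (PT D7), with both PT D7 libraries above the other 4. A few cells carried far more than the rest. Among microglia the highest was a development-associated cell of PT D1 2 with 32 UMIs, 9 of Ifit3 and 9 of Oasl2, and the next were disease-associated cells of uninjured 2 with 29 and 22. These 3 cells held 15396, 16292 and 8534 UMIs in all. As CPM outside Gm their effectors were at 2597, 2238 and 3224. The 20 unknown/ependymal cells had a median of 7.5, and 1 of them, from PT D1 2, held 69, of which 25 were Ifit3 and 20 Ifit1. Cells with high effector counts thus occurred in uninjured and injured libraries. Counts per cell were not scaled for depth, whose median was 6785 UMIs in disease-associated, 4759 in homeostatic and 8312 in unknown/ependymal cells.

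**Figure D5:**
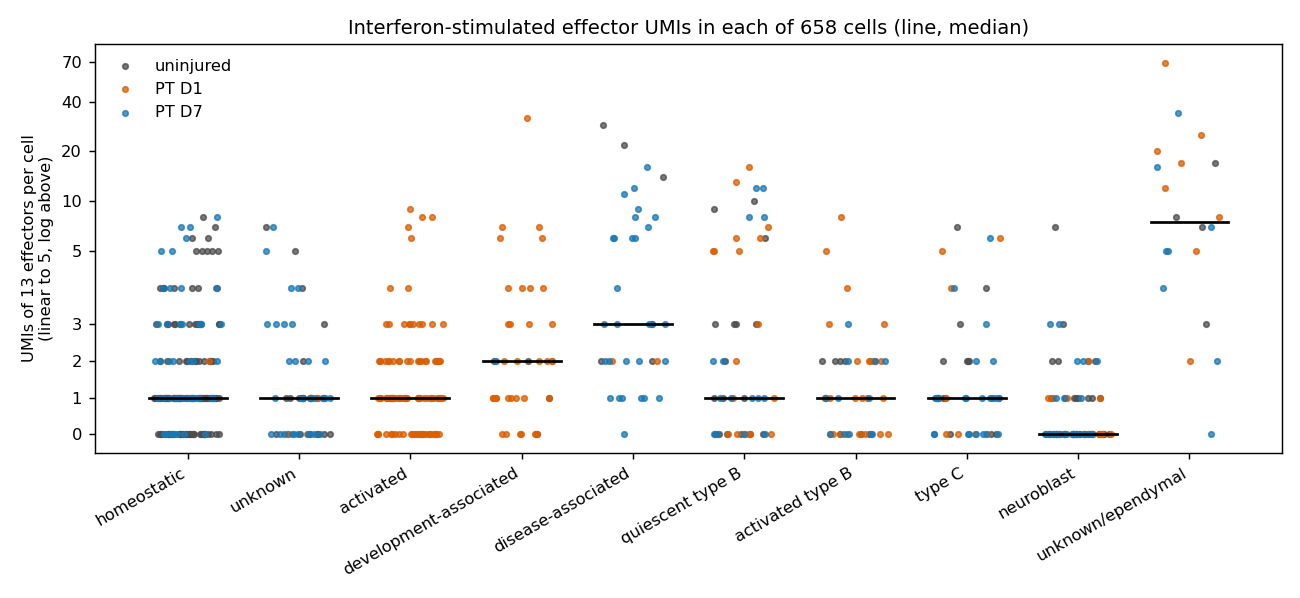
UMIs of the 13 antiviral effectors in each cell, by subcluster and condition (colour), 1 point per cell with the median as a line; the axis is linear to 5 and logarithmic above. Most cells hold under 10, and the highest points are 69 in an unknown/ependymal cell and, among microglia, 32 in a development-associated cell.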

How the data were processed

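Processed data were 1 table of UMI counts per gene and cell with a cell table, from 6 mCEL-Seq2 libraries of 192 wells (2 each of uninjured, PT D1 and PT D7). The authors demultiplexed with bcl2fastq 2.17.1.14 and used GRCm39, per the labels. Aligner, counter and annotation: not given in the sources used here. Counts as deposited were whole and not normalized, and the authors kept cells with over 1000 UMIs, within 3 median absolute deviations and with at most 25% mitochondrial UMIs. The deposited cell table gives the percent of mitochondrial UMIs, read here for 1 alternative, and the authors' subclusters, made from the same counts. Its other 14 columns were not used. Libraries were read from the cell names. In the PT D7 names the library is the last number of the library part, a reading not stated elsewhere.

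UMIs were summed per library and class and tested with edgeR 4.0.16 (R 4.3.3): TMM, filterByExpr, quasi-likelihood F-test over all 6 libraries, Benjamini-Hochberg adjustment over all genes tested. Alternatives were DESeq2 1.42.0, no TMM, other count filters, the replicate block, fewer libraries or cells, and cells thinned to 1000 UMIs; leaving out the 5 Gm transcripts or the development-associated microglia was added after the data were seen. The scripts were tested on simulated data. Deviations of same-numbered libraries correlated at 0.220, 0.193 and 0.262 in microglia and at 0.0950, −0.0581 and −0.0410 in NSPCs. The library number served as a replicate block only in 1 alternative, run in both classes (a pairing seen in the data, since no source states a shared batch). The main test within a class used condition alone. Which plate held which library is not given, nothing states that libraries came from separate mice, and p-values then measure the spread between libraries. No doublet caller was run, since the authors kept cells by their UMI limits. Full values were given for called members and the 6 members with the most UMIs in each class, and other members by range and count, with exceptions named. Other pathway genes were named by smallest adjusted p, at most 5 per comparison and direction, beside Cxcl10, which is given by its values at PT D1. 1 result of the pathway list is not reported here. The members and lists were chosen with earlier results of these data known.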

Additional observations from a re-analysis of the deposited data

Results flagged for a closer look

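The 20 unknown/ependymal cells, which enter no comparison, had a higher pooled level of the 13 antiviral effectors in both injured groups than in the uninjured one. In CPM of UMIs outside the 5 Gm transcripts, the effectors summed to 2854 at PT D1 (8 cells, 158 UMIs) and 1358 at PT D7 (8 cells, 73 UMIs), against 693 in uninjured mice (4 cells from 1 library, 35 UMIs). Single cells carried much of this: 69 of the 158 UMIs at PT D1 lay in 1 cell and 34 of the 73 at PT D7 in another. By library the order did not hold throughout: PT D7 2 was at 646 (14 UMIs in 3 cells), and PT D1 2 without its top cell was at 545. The difference was not tested. These cells also held 34223 CPM of choroid plexus markers, 9328 of oligodendrocyte, 3276 of endothelial and 2029.7 of ependymal cell markers, so they were a mixed group, and the part of its make-up in the difference was not tested. With 2 libraries per group, single libraries could not be tested as outliers.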

How the results depend on the processing

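No call of a member in microglia held under every setting. Shares of all genes called under the alternatives are not given here, so the counts below do not set the members apart from other genes. In microglia the count of members called was 0 in each of the 3 comparisons, and it moved as follows. With the library number as replicate block it was 1 at PT D1 (B2m), 2 at PT D7 (H2-D1 and B2m) and 3 from PT D1 to PT D7 (Trim30a, Bst2 and Xaf1). Leaving out 1 library each gave 0 to 2, 0 to 2 and 0 to 4: without PT D1 replicate 1 it was 2 (Irf8 lower and Oasl2 higher), 1 (H2-D1) and 4, and without PT D1 replicate 2 it was 1, 2 and 0. Cells with at most 10% mitochondrial UMIs gave 1 (B2m) at PT D1 and 1 (Trim30a) from PT D1 to PT D7. Trim30a was also the 1 member called in that comparison with no filter on low counts and without cells that held markers of the other class, and H2-D1 the 1 called at PT D7 without the unknown microglia. Without the development-associated microglia, a setting added after the data were seen, it was 1 in each (B2m, H2-D1 and Trim30a). In NSPCs the 1 call at PT D1 (Ifitm3) went to 0 under DESeq2, with at least 10 counts in every library, with cells thinned to 1000 UMIs, where 0 members could be tested, and without cells with markers of the other class. Leaving out 1 library also moved the NSPC counts at PT D1 and PT D7, but its condition then held 1 library, so these counts are not given. The replicate block kept the NSPC call (adjusted p = 0.0291 in edgeR) and changed no other. In NSPCs the 10% mitochondrial limit gave no value, since libraries fell under 10 cells, and an arm left with 1 library was taken to vary like the others. All 36 shares of cells with a member's UMI moved when cells were not thinned. Depth limits the rest: 14 members in microglia and 25 in NSPCs could not be tested.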
